A study of Mus musculus with 12 samples.

Results

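The 9 mRNAs described here encode proteins of the translation machinery and its neighbours that do not carry a ribosomal protein symbol, and each is a known or probable terminal oligopyrimidine (TOP) mRNA. They were taken by gene symbol from the 55376 genes of the count table, and all 9 were found: Eef1a1, Eef1b2, Eef1g, Eef2, Pabpc1, Tpt1, Npm1, Fau and Rack1. All 9 were also among the 12224 genes tested, which had a level of at least 1 CPM (counts scaled to the library total) in at least 3 libraries.

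The RNA came from 4T1 cells, a mouse mammary carcinoma line, that carried either the empty vector (mock) or a vector for FLAG-tagged METTL7A1, a putative methyltransferase, under a CMV promoter. Both lines were stable transfectants kept under G418, and the sources used here do not say whether each was a clone. Both were treated with cycloheximide at 0.1 mg/ml for 5 min to hold ribosomes on the mRNA, and their extracts were separated on sucrose gradients. Fractions 3 to 7, with free ribosomal subunits and single ribosomes, made the sub-polysomal pool, and the polysomal pool held fractions 8 to 11. The groups were mock sub-polysomal, mock polysomal, METTL7A1 sub-polysomal and METTL7A1 polysomal RNA, each with 3 libraries (A, B and C for mock, D, E and F for METTL7A1). Total counts were lowest in mock sub-polysomal library A (1817520) and highest in mock polysomal library C (6966156). This smallest library also had the lowest CPM of its group for 7 of the 9 members. RNA levels are given as CPM scaled with TMM factors, so they are shares of a pool and not amounts of RNA per cell. A lower value cannot tell fewer transcript copies per cell from fewer cells that hold them.

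TOP mRNAs begin with a cytosine followed by an unbroken stretch of pyrimidines directly behind the cap. Their translation follows nutrient and growth signals through mTORC1: when the kinase is off, LARP1 binds the cap and the pyrimidine stretch, and the mRNAs leave polysomes while remaining stable. The class holds nearly all ribosomal protein mRNAs together with elongation factors, the cytoplasmic poly(A)-binding protein and a few other abundant mRNAs, so that the parts of the translation machinery are made together.

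The first bases of these mRNAs are what the TOP name refers to, so the sequence around the annotated start is shown for the members in which it held a pyrimidine stretch. Of the 9 members, 6 matched an entry of the RefSeq promoter table (GRCm38.p6), and Eef1g, Pabpc1 and Npm1 did not. The motif searched was a C followed by at least 4 bases that are each C or T, on the transcribed strand alone. Each sequence below runs 5′ to 3′ from 10 bases before the annotated start to 20 bases after it, with each match of the motif in capitals.
Fau: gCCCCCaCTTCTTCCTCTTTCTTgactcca
Rack1: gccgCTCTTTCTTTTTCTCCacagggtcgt
Eef1a1: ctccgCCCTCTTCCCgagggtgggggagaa
Eef2: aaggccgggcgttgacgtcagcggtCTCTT
The windows lie at chr19:6057937-6057966 on the plus strand for Fau, chr11:48800350-48800379 on the plus strand for Rack1, chr9:78481705-78481734 on the minus strand for Eef1a1 and chr10:81176621-81176650 on the plus strand for Eef2. In Fau and Rack1 the first transcribed base was itself a C with at least 4 pyrimidines behind it, inside a stretch of 16 bases in both. In Eef1a1 a stretch of 10 bases began 5 bases before the annotated start, and in Eef2 a match began 15 bases after it. The windows of Eef1b2 and Tpt1 held no match. The start in the promoter table lay 163 bases downstream of the gene bound in Tpt1, 103 in Fau and 6 in Eef1b2, and at the bound in Eef1a1, Eef2 and Rack1, and sequence at the other bound was not analysed here. A match at the first base was found in 2 of the 6 members, in 13 of 67 promoters of ribosomal protein genes (19.4%) and in 823 of all 32851 promoters (2.51%). A match anywhere in the 30 bases was common, with 35.8% of all promoters, 59.7% of those of ribosomal protein genes and 4 of the 6 members. The starts used in 4T1 cells were not measured here.

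Some members also host small nucleolar RNAs. Of the 9 genes, 4 held an annotated small nucleolar RNA (snoRNA) gene within their bounds on the same strand: Eef1b2, Eef2, Tpt1 and Rack1. That is a share of 44.4%, beside 39.5% of 76 tested ribosomal protein genes and 1.78% of 10837 tested protein-coding genes. The snoRNA genes themselves had few counts, with at most 100 for Snord96a of Rack1 over all 12 libraries. The coding lengths of the members ran from 399 bases in Fau and 516 in Tpt1 to 1908 in Pabpc1 and 2574 in Eef2, with a median of 951. The median was 454.5 bases for the ribosomal protein mRNAs and 1374 for the tested protein-coding genes.

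Several members have processed pseudogenes, so reads could have been shared with near-identical copies. Copies were sought as other annotated transcripts with at least 95% identity over at least 200 bases. Gm4366, a copy of Eef1g, had 8947 counts over the 12 libraries, equal to 11.0% of the Eef1g counts, and the Eef1g level is therefore uncertain. The summed copies of Npm1 had 2.28% of its counts, those of Fau 2.04%, those of Tpt1 0.999% and those of Eef1a1 0.639%. For Eef1b2, Pabpc1 and Eef2 the share was 0.431%, 0.171% and 0.0579%, and Rack1 had no such copy. Exons of Rack1 overlap those of Trim41 on the opposite strand, which had 0.868% of the Rack1 counts. The sources used here do not give the strand setting of the counting.

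The transfected gene separated the genotypes in every library. Mettl7a1 stood at 2.82, 1.26 and 3.16 CPM in mock sub-polysomal libraries A to C and at 3.28, 3.02 and 2.85 CPM in mock polysomal libraries A to C. It stood at 395, 284 and 236 CPM in METTL7A1 sub-polysomal libraries D to F and at 309, 313 and 273 CPM in the polysomal ones. RNAs of known type were looked at in the same pools. Neat1, a nuclear long non-coding RNA, fell by 1.95 on the log2 scale between the pools of mock cells, toward the polysomal one (standard error 0.26, adjusted p = 9.14e-06 in edgeR's quasi-likelihood test). Malat1, another nuclear RNA, had a log2 change of -0.82 in the same comparison. Pkm, the mRNA of pyruvate kinase, rose by 0.97 in mock cells, and Mmp14, that of a membrane metalloproteinase, rose by 1.29 in METTL7A1 cells, both past an adjusted p of 0.05 in that test. Actb differed by 0.08 between the mock pools, with an adjusted p of 0.706 from the same test. All 6 epithelial markers looked for were present in every library, and they summed to between 2636 and 5989 CPM. Of the 8 markers of leukocytes, endothelium, fibroblasts and adipocytes, 1 passed the filter, namely Cd68 with 4.64 to 22.3 CPM. Cd3e and Pdgfrb had 0 counts in every library.

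Together the members took a small share of the unscaled counts. It was 1.74%, 1.93% and 1.97% in mock sub-polysomal libraries A to C and 2.44%, 2.05% and 2.13% in the mock polysomal ones. In METTL7A1 cells it was 1.34%, 1.42% and 1.40% in sub-polysomal libraries D to F and 2.06%, 2.16% and 1.94% in polysomal libraries D to F. In these unscaled shares polysomal libraries lay above sub-polysomal ones in each genotype, but with TMM factors the direction in mock cells turned. The scaled levels of the 9 members summed to 17869, 21916 and 22294 CPM in mock sub-polysomal libraries A to C and to 19881, 16995 and 18370 CPM in the polysomal ones, with overlap. In METTL7A1 cells they summed to 16302, 17592 and 17310 CPM in sub-polysomal RNA and to 18140, 19149 and 17541 CPM in polysomal RNA, also with overlap. The 95% Wilson interval of the unscaled share ran from 1.723% to 1.761% in the smallest library and from 2.153% to 2.175% in METTL7A1 polysomal library E, and these intervals cover counting error only. The ribosomal protein mRNAs had 6.64% to 8.35% of unscaled polysomal counts and 11.2% to 16% of sub-polysomal counts.

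**Figure D1:**
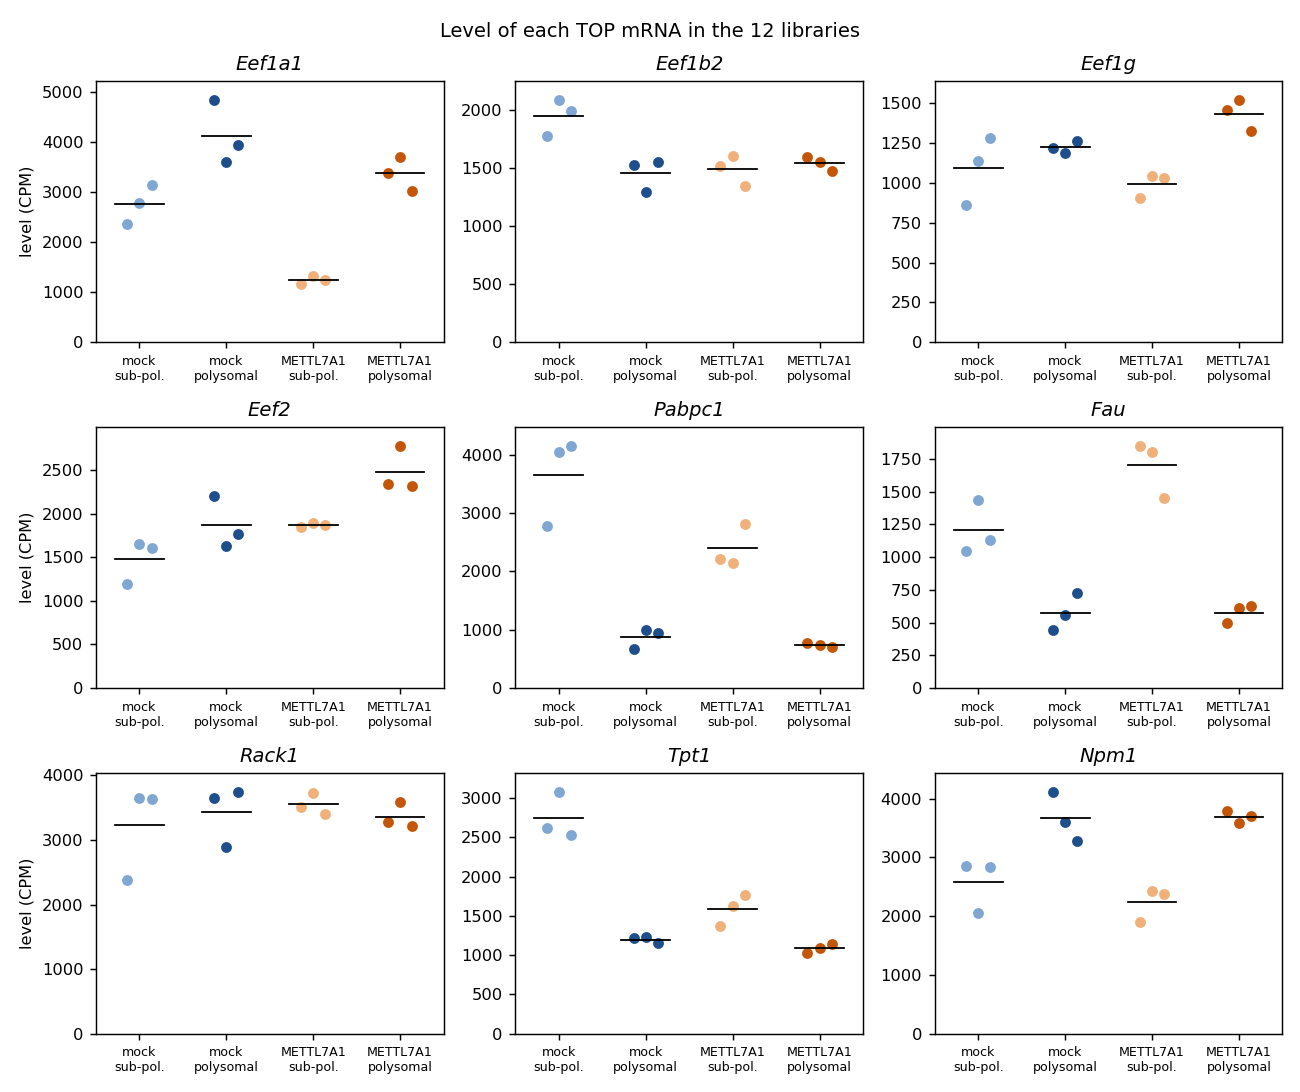
Level of each member in CPM (linear axis from 0) in the 12 libraries, by genotype and pool, with points for libraries in letter order and lines for group means. Pabpc1, Fau and Tpt1 sit higher in both sub-polysomal groups, and Eef1a1 and Npm1 sit higher in both polysomal groups.

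Levels per length, in CPM per kb of exon, show how the order of the members differed between the pools. In mock sub-polysomal RNA it ran from Rack1 at 2228 ± 501 (SD, n = 3) and Tpt1 at 2143 ± 231 (SD, n = 3) down to Eef1g at 587 ± 114 (SD, n = 3) and Eef2 at 479 ± 82.2 (SD, n = 3). Rack1 differed from Tpt1, and Eef1g from Eef2, by less than their spread. The neighbours Eef1a1, Fau, Pabpc1 and Npm1, between 1269 and 1536 CPM per kb, differed from one another by less than their spread. In mock polysomal RNA Rack1 at 2370 and Eef1a1 at 2299 CPM per kb led, and they differed by less than their spread. Npm1 followed at 1805, and Pabpc1 was last at 309 ± 62.5 (SD, n = 3), below Eef2 at 605. In METTL7A1 sub-polysomal RNA Rack1 at 2453 led Fau at 1982, while Eef1a1, at 694 ± 40.8 (SD, n = 3), stood at rank 7. Eef1a1 and Eef1b2, which ranked just above it at 769, differed by less than their spread. In METTL7A1 polysomal RNA Rack1 at 2323 was ahead of Eef1a1 at 1877 and Npm1 at 1817, which differed by less than their spread. Pabpc1 was again last, at 261 ± 11.6 (SD, n = 3) CPM per kb.

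The first comparison asks how each mRNA was spread between the pools in either genotype. The members did not move together. In mock cells 2 of the 9 were higher in polysomal RNA at an adjusted p below 0.05 and 4 were lower, beside 23.3% and 23.7% of all genes tested. In METTL7A1 cells 3 were higher and 3 lower, beside 30.0% and 29.3%. The study's rule for a call is stricter: adjusted p under 0.01 together with a log2 change of more than 1.5 up or down. The study gives this rule for METTL7A1 against mock cells in total RNA, and it is applied here to every comparison. By it, Pabpc1 alone was called in mock cells, beside 7.55% of all genes, and Pabpc1 and Fau were called in METTL7A1 cells, beside 12.1%. In METTL7A1 cells Pabpc1 fell short of this rule with TMM factors within each pool (-1.27), and Fau with those factors (-1.13), with GC offsets (-0.85) and without METTL7A1 replicate D (-1.41). The median log2 change of the members was 0.09 in mock and 0.05 in METTL7A1 cells, and that of all genes 0.05 and 0.06. Single members spread from -2.07 to 0.58 in mock cells and from -1.70 to 1.44 in METTL7A1 cells.

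**Figure D2:**
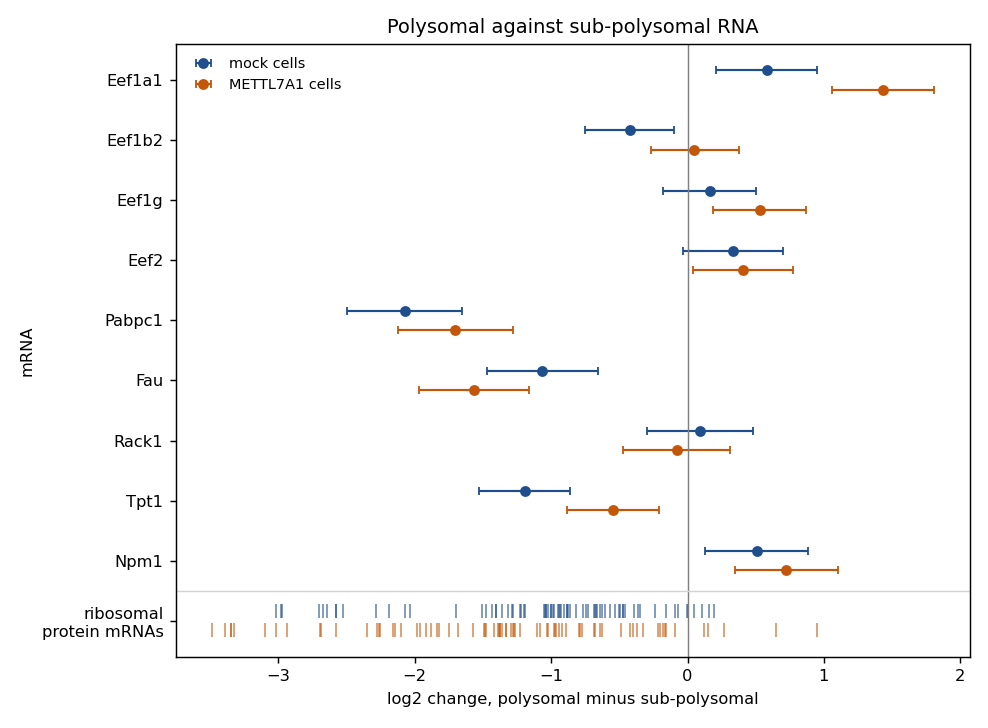
Log2 change of each member, polysomal minus sub-polysomal pool, in mock cells (blue) and METTL7A1 cells (orange), with 95% confidence intervals from the fit and ticks for the 76 tested ribosomal protein mRNAs. Pabpc1, Fau and Tpt1 lie left of 0 and Eef1a1 and Npm1 right of 0 in both genotypes.

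Among the elongation factors, Eef1a1 encodes the subunit that brings aminoacyl-tRNA to the ribosome. It is on chromosome 9, at 78478449 to 78481724 of GRCm38. It had 2366, 2772 and 3130 CPM in mock sub-polysomal libraries A to C and 4828, 3598 and 3946 CPM in mock polysomal libraries A to C. In METTL7A1 cells it had 1170, 1317 and 1246 CPM in sub-polysomal libraries D to F and 3382, 3694 and 3027 CPM in polysomal libraries D to F. Every polysomal library lay above every sub-polysomal one within a genotype, and the METTL7A1 sub-polysomal libraries lay apart below the mock ones. The rise into polysomes was 0.58 on the log2 scale in mock cells (standard error 0.18, adjusted p = 0.0107 in edgeR's quasi-likelihood test). Without the libraries of mock replicate A this change was 0.31, with an adjusted p of 0.111 from the same test. In METTL7A1 cells the rise was 1.44 (standard error 0.18, adjusted p = 2.16e-06 in edgeR's quasi-likelihood test).

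Eef1b2 and Eef1g encode subunits of the exchange factor that reloads eEF1A with GTP. Eef1b2 lay between 1295 and 1555 CPM in polysomal and between 1781 and 2086 CPM in sub-polysomal RNA of mock cells, without overlap. It fell by 0.42 (standard error 0.16, adjusted p = 0.0324 in edgeR's quasi-likelihood test). With TMM factors within each pool the change was 0.00, and it also missed the threshold without a filter (-0.37, adjusted p 0.13) and with only the compared groups in the fit (-0.42, adjusted p 0.0969). It was lost when mock replicate B or C, or METTL7A1 replicate E, was left out, with log2 changes of -0.30, -0.46 and -0.42 and adjusted p of 0.246, 0.0834 and 0.0663 in edgeR's quasi-likelihood test. In METTL7A1 cells the pools of Eef1b2 overlapped, from 1345 to 1603 CPM and from 1480 to 1598 CPM. Eef1g lay between 863 and 1284 CPM in mock sub-polysomal and between 1188 and 1265 CPM in mock polysomal RNA, and these groups overlapped. In METTL7A1 cells it rose by 0.53 (standard error 0.16, adjusted p = 0.00956 in edgeR's quasi-likelihood test). With the counts of its copies added, that rise was 0.48, with an adjusted p of 0.0159 from the same test. Without METTL7A1 replicate D or E it was 0.45 and 0.52, with adjusted p of 0.0926 and 0.0725 from that test, and scaled to Actb it was 0.29, with an adjusted p of 0.183. The third subunit, Eef1d, was higher in polysomal RNA by 0.54 in mock and by 0.85 in METTL7A1 cells (standard error 0.15 in both), with adjusted p of 0.00598 and 8.68e-05 from that test.

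Eef2 encodes the GTPase that moves the ribosome along the mRNA by a codon. It is on chromosome 10, at 81176631 to 81182498 of GRCm38. Its mean was 1480 ± 254 CPM (SD, n = 3) in mock sub-polysomal and 1868 ± 301 CPM (SD, n = 3) in mock polysomal RNA, and these groups overlapped. In METTL7A1 cells all polysomal libraries, at 2323 to 2775 CPM, lay above the sub-polysomal ones, at 1852 to 1892 CPM. The log2 changes of 0.33 and 0.41 had adjusted p of 0.124 and 0.0537 in edgeR's quasi-likelihood test. With TMM factors within each pool both passed, at 0.76 and 0.84, and so they did with GC offsets, at 0.43 and 0.79. Without mock replicate A the change was 0.02 in mock cells, and in METTL7A1 cells it was 0.39 and passed with an adjusted p of 0.00645. In METTL7A1 cells Eef2 also passed in DESeq2, in limma-voom and with only the compared groups in the fit.

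Of the 18 tested genes for other elongation and termination factors and for enzymes that modify them, 4 were higher and 1 lower in polysomal RNA of mock cells, and 5 were higher and 7 lower in METTL7A1 cells. Shares over all genes in the same tests were 23.3% and 23.7% in mock cells and 30.0% and 29.3% in METTL7A1 cells. TMM factors within each pool, which raise the pool change of all genes, gave 11 against 1 in mock and 7 against 3 in METTL7A1 cells. Over all 12224 genes they gave 5871 higher and 1743 lower in mock, and 5970 and 2356 in METTL7A1 cells. Gspt1, the release factor eRF3, was higher in polysomal RNA in both, by 1.03 and 1.13. Vars, the valyl-tRNA synthetase that joins the eEF1 complex, was higher by 0.54 in mock cells. Eef1akmt2, a methyltransferase for eEF1A, fell by 1.25 in mock and by 1.24 in METTL7A1 cells. Dohh and Eif5a, the hypusine-forming enzyme and its substrate, fell by 1.17 and 0.91 in METTL7A1 cells. Eef2k, the kinase that inhibits eEF2, was higher in polysomal RNA of mock cells by 0.86 (standard error 0.21), while its change in METTL7A1 cells was -0.12 (standard error 0.20). The difference between these, -0.98, had an adjusted p of 0.137 in edgeR's quasi-likelihood test. Eef1a2, the isoform of muscle and neurons, did not pass the filter.

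Pabpc1 encodes the cytoplasmic protein that coats poly(A) tails and contacts the cap-binding complex. The gene is on chromosome 15, at 36595661 to 36608973 of GRCm38. It had 2773, 4060 and 4152 CPM in mock sub-polysomal libraries A to C and 668, 993 and 948 CPM in mock polysomal libraries A to C. In METTL7A1 cells it had 2212, 2149 and 2824 CPM in sub-polysomal libraries D to F and 768, 736 and 702 CPM in polysomal libraries D to F. Every polysomal library lay below every sub-polysomal library, with the lowest sub-polysomal value at 2149 and the highest polysomal one at 993 CPM. Pabpc1 fell by 2.07 on the log2 scale in mock cells, or 4.21-fold (standard error 0.20, adjusted p = 6.04e-07 in edgeR's quasi-likelihood test). In METTL7A1 cells it fell by 1.70, or 3.26-fold (standard error 0.20, adjusted p = 1.25e-06 in edgeR's quasi-likelihood test). Both changes passed an adjusted p of 0.05 in all 17 alternative fits.

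Pabpc1 was also set beside other mRNAs with long coding regions. Across 10837 tested protein-coding genes, the pool change in mock cells rose with coding length, with a Spearman rho of 0.55, and in METTL7A1 cells with a rho of 0.54. Genes are not independent replicates, and these values only describe the libraries. Among the 3423 genes with a coding length of at least the 1908 bases of Pabpc1, the median log2 change was 0.48 in mock and 0.59 in METTL7A1 cells, and 4.27% and 7.68% were lower in polysomal RNA. In that set 6 other genes had a log2 change as low as that of Pabpc1 in mock cells, and 27 in METTL7A1 cells. Its relative Pabpc4 fell by 0.69 in mock and by 0.35 in METTL7A1 cells (standard error 0.13 in both). Of the 12 tested genes for poly(A)-binding proteins, their partners and deadenylation factors, 1 was higher and 2 were lower in mock polysomal RNA. In METTL7A1 polysomal RNA 2 were higher and 2 lower. Over all genes the shares higher and lower were 23.3% and 23.7% in mock and 30.0% and 29.3% in METTL7A1 cells. With TMM factors within each pool, mock cells had 5 of the 12 higher against 0 lower, and METTL7A1 cells 4 against 1. Those factors gave 5871 higher and 1743 lower over all 12224 genes in mock, and 5970 and 2356 in METTL7A1 cells. Larp4b, an RNA-binding protein that contacts poly(A)-binding protein, was higher by 0.97 and 1.26.

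**Figure D3:**
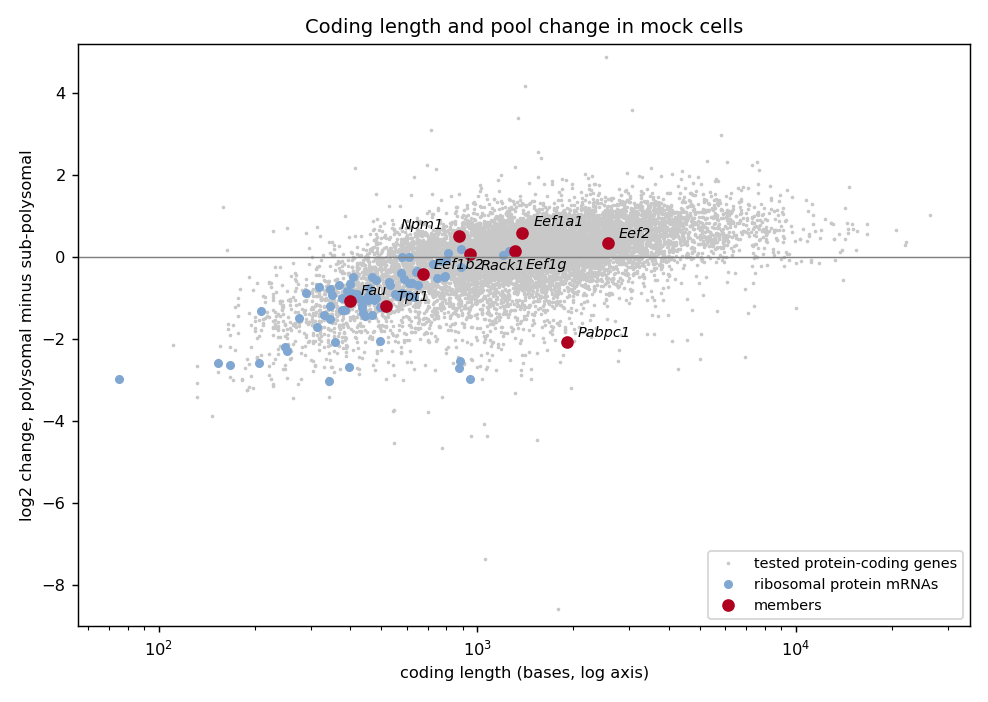
Log2 change, polysomal minus sub-polysomal pool, in mock cells against coding length in bases (log axis), with 1 point for each tested protein-coding gene, ribosomal protein mRNAs in blue and members in red. Fau and Tpt1 lie among short mRNAs with similar changes, and Pabpc1 lies below most mRNAs of its length.

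Of the members tied to the ribosome, Fau encodes a ubiquitin-like protein fused to the ribosomal protein eS30. The gene is on chromosome 19, at 6057844 to 6059524 of GRCm38, and the start in the promoter table, which lies inside the pyrimidine stretch shown above, is 103 bases downstream of that gene bound. It had 1047, 1435 and 1131 CPM in mock sub-polysomal libraries A to C and 446, 557 and 726 CPM in mock polysomal libraries A to C. In METTL7A1 cells it had 1848, 1804 and 1455 CPM in sub-polysomal libraries D to F and 496, 608 and 623 CPM in polysomal libraries D to F. All polysomal libraries lay below all sub-polysomal ones, and the METTL7A1 sub-polysomal libraries were the highest. Fau fell by 1.06 in mock cells (standard error 0.19, adjusted p = 2e-04 in edgeR's quasi-likelihood test) and by 1.56 in METTL7A1 cells (standard error 0.19, adjusted p = 2.21e-06 in edgeR's quasi-likelihood test). With offsets that remove the trend of each library with GC content, its log2 change in METTL7A1 cells was -0.85, with an adjusted p of 5.4e-05.

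Rack1 encodes a scaffold protein of the small ribosomal subunit, and its start in the promoter table also lies inside a pyrimidine stretch. The gene is on chromosome 11, at 48800360 to 48806434 of GRCm38. Its mean was 3224 ± 725 CPM (SD, n = 3) in mock sub-polysomal and 3430 ± 468 CPM (SD, n = 3) in mock polysomal RNA. In METTL7A1 cells it was 3550 ± 164 CPM (SD, n = 3) and 3361 ± 205 CPM (SD, n = 3). The groups overlapped in both genotypes. The log2 changes were 0.09 (95% confidence interval -0.30 to 0.48) and -0.08 (-0.47 to 0.31), and neither passed the threshold. With TMM factors within each pool Rack1 passed in mock cells, at 0.51 with an adjusted p of 0.0202, and in METTL7A1 cells its change turned to 0.36, with an adjusted p of 0.0886.

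The ribosomal protein mRNAs, which form the largest TOP group, had 63 of 76 tested members lower in polysomal RNA of mock cells and 0 higher, with a median log2 change of -0.94. In METTL7A1 cells 63 were lower and 2 higher, Rpl5 and Rpl4, with a median of -1.31. The direction of the medians held under all 3 other scalings tried. With TMM factors computed within each pool 45 were lower and 6 higher in mock cells, with a median of -0.52. In METTL7A1 cells 54 were lower and 5 higher with these factors. Over all 12224 genes they gave 1743 lower and 5871 higher in mock, and 2356 and 5970 in METTL7A1 cells. Their coding regions are short. Among all 1040 tested genes with a coding length of at most 516 bases, that of Tpt1, the median log2 change was -1.04 in mock cells, with 74.6% lower, and -1.31 in METTL7A1 cells, with 80.9% lower.

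Of the remaining members, Tpt1 encodes the translationally controlled tumor protein, an abundant growth-related protein. The gene is on chromosome 14, at 75845093 to 75848525 of GRCm38. It had 2620, 3077 and 2526 CPM in mock sub-polysomal libraries A to C and 1215, 1228 and 1150 CPM in mock polysomal libraries A to C. In METTL7A1 cells it had 1370, 1626 and 1762 CPM in sub-polysomal libraries D to F and 1031, 1091 and 1141 CPM in polysomal libraries D to F. Polysomal libraries lay below sub-polysomal ones in both genotypes, and METTL7A1 libraries lay below mock libraries within each pool. Tpt1 fell by 1.19 in mock cells (standard error 0.16, adjusted p = 1.11e-05 in edgeR's quasi-likelihood test). In METTL7A1 cells it fell by 0.54 (standard error 0.16, adjusted p = 0.00634 in edgeR's quasi-likelihood test). Without METTL7A1 replicate E that change was -0.53, with an adjusted p of 0.0652 in the same test, and with TMM factors within each pool it was -0.11, with an adjusted p of 0.536.

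Npm1 encodes nucleophosmin, a nucleolar chaperone of ribosome assembly and histones. The gene is on chromosome 11, at 33152287 to 33163206 of GRCm38. In mock cells its sub-polysomal libraries had 2048 to 2845 CPM and its polysomal libraries 3277 to 4112 CPM. In METTL7A1 cells it lay between 1908 and 2427 CPM and between 3578 and 3788 CPM, so the pools did not overlap in either genotype. Npm1 rose into polysomes by 0.51 in mock cells (standard error 0.18, adjusted p = 0.0261 in edgeR's quasi-likelihood test) and by 0.72 in METTL7A1 cells (standard error 0.18, adjusted p = 0.00205 in edgeR's quasi-likelihood test). In mock cells the adjusted p was 0.0549, 0.189 and 0.0572 without mock replicate A, mock replicate B and METTL7A1 replicate E, at log2 changes of 0.45, 0.37 and 0.51. It was 0.0764 with only the compared groups in the fit. Scaled to Actb, Npm1 missed the threshold in both genotypes, at 0.40 in mock and 0.49 in METTL7A1 cells, with adjusted p of 0.138 and 0.058. Its nucleolar partner Ncl was likewise higher in polysomal RNA, by 0.64 and 1.57, while its smaller relative Npm3 fell by 1.45 and 1.86 (standard error 0.18 in each). Of the 10 tested partner genes of Npm1, Fau and Rack1, mock cells had 3 higher and 3 lower, and 4 were higher and 3 lower in METTL7A1 cells. With TMM factors within each pool these were 7 against 1 and 5 against 2. Those factors gave 5871 higher and 1743 lower over all 12224 genes in mock, and 5970 and 2356 in METTL7A1 cells. Over all genes the main fit had 23.3% higher and 23.7% lower in mock cells, and 30.0% and 29.3% in METTL7A1 cells.

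Of 10 tested TOP genes outside the members and the ribosomal proteins, 4 were higher and 2 lower in polysomal RNA of mock cells. In METTL7A1 cells 6 were higher and 3 lower. With TMM factors within each pool both genotypes had 7 higher and 2 lower. Those factors gave 5871 higher and 1743 lower over all 12224 genes in mock, and 5970 and 2356 in METTL7A1 cells. Over all genes the main fit had 23.3% higher and 23.7% lower in mock cells, and 30.0% and 29.3% in METTL7A1 cells. Vim, the intermediate filament vimentin, rose by 0.73 and 0.94, and Nap1l1, a histone chaperone, by 0.66 and 1.18. Hnrnpa1, an RNA-binding protein of splicing, rose by 0.60 and 1.55. The non-coding snoRNA hosts Gas5 and Snhg1, which carry a TOP start but no long reading frame, had log2 changes of -2.91 and -2.52 in mock cells and of -2.86 and -2.51 in METTL7A1 cells, all past the threshold, and Eif3f, a subunit of initiation factor 3, fell by 0.64 in METTL7A1 cells.

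The second comparison set METTL7A1 against mock cells within a pool. In polysomal RNA 0 of the 9 members passed an adjusted p of 0.05 in either direction, beside 9.69% of all genes higher and 8.28% lower, and 0 were called by the study's rule, beside 2.13%. At an unadjusted p below 0.05, edgeR and limma-voom had 1 member each, Eef2, beside 3819 of all 12224 genes in edgeR. DESeq2 had 2 members, and 0 members passed the adjusted threshold by any of the 3. The log2 changes lay between -0.29 for Eef1a1 and 0.41 for Eef2, with a median of 0.00. For Eef2 the 95% confidence interval was 0.04 to 0.78 and the adjusted p 0.115 in edgeR's quasi-likelihood test, although all 3 METTL7A1 polysomal libraries lay above the mock ones. Without mock replicate A the change of Eef2 was 0.56, with an adjusted p of 0.00571 from the same test. Intervals of the other members reached no lower than -0.66 and no higher than 0.57.

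In sub-polysomal RNA 3 of the 9 members were lower in METTL7A1 than in mock cells and 0 higher, beside 14.5% and 16.8% of all genes. At the study's rule 0 were called, beside 2.76%. Eef1a1 fell by 1.15, or 2.22-fold (standard error 0.18, adjusted p = 0.000117 in edgeR's quasi-likelihood test), and its groups of 1170 to 1317 and 2366 to 3130 CPM lay apart. Tpt1 fell by 0.79 (standard error 0.16, adjusted p = 0.00109 in edgeR's quasi-likelihood test), also without overlap. Neither of these changes was lost in any of the 16 alternative fits at an adjusted p of 0.05. Pabpc1 fell by 0.61 (standard error 0.20, adjusted p = 0.0233 in edgeR's quasi-likelihood test), but its groups overlapped, and the change missed the threshold in 6 of 16 alternative fits. Among these were the fits without mock replicate B or C and without METTL7A1 replicate D or E, at -0.54, -0.52, -0.56 and -0.54 with adjusted p of 0.0776, 0.0886, 0.104 and 0.139.

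The remaining 6 members did not pass in sub-polysomal RNA. Fau had a log2 change of 0.50 (adjusted p = 0.053 in edgeR's quasi-likelihood test) and Eef1b2 one of -0.39 (adjusted p = 0.0619 from the same test), and the groups of both, and of Eef2, did not overlap. Fau passed in 7 of 16 alternative fits and Eef1b2 in 5 of 16. Eef2 at 0.34, Rack1 at 0.14, Eef1g at -0.14 and Npm1 at -0.21 had adjusted p between 0.15 and 0.608. Scaled to Actb, which itself had a log2 change of -0.26, Eef2 and Fau passed at 0.61 and 0.78, and Pabpc1 did not at -0.35.

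**Figure D4:**
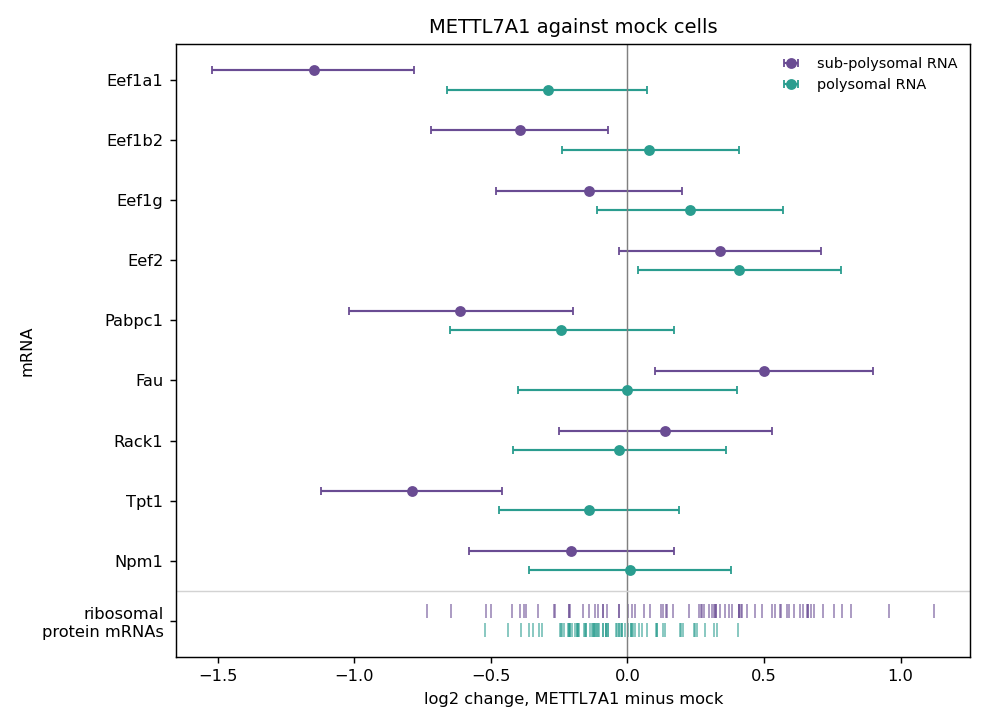
Log2 change of each member from mock to METTL7A1 cells in sub-polysomal RNA (purple) and polysomal RNA (green), with 95% confidence intervals from the fit and ticks for the 76 tested ribosomal protein mRNAs. Eef1a1, Tpt1 and Pabpc1 lie left of 0 in sub-polysomal RNA, and in polysomal RNA the members lie between -0.29 and 0.41.

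Changes of the genotype in sub-polysomal RNA went along with GC content across genes, with a Spearman rho of 0.44 over 10837 protein-coding genes, and rho was -0.48 for the shift and -0.33 for the METTL7A1 pool change. The members span 42.4% GC in Npm1 to 60.5% in Fau, with 47.4% in Eef1a1 and 53.1% in Tpt1. With offsets for this trend the change was -0.92 for Eef1a1, with an adjusted p of 0.000706, and -0.89 for Tpt1, with an adjusted p of 0.000441, both in edgeR's quasi-likelihood test. It was -0.41 for Pabpc1, with an adjusted p of 0.13 from that test. For Fau, Eef2 and Eef1b2 it was -0.09, -0.06 and -0.13, in place of 0.50, 0.34 and -0.39, so Fau and Eef2 turned in direction.

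The ribosomal protein mRNAs had 14 of 76 higher and 5 lower in METTL7A1 sub-polysomal RNA, beside 16.8% and 14.5% of all genes. Their median was 0.29, against -0.21 for the members and 0.00 for all genes. Scaled to Actb the split was 36 higher and 0 lower, beside 3283 higher and 667 lower of all 12224 genes under that scaling. Rps14 rose by 1.12 and Rps15 by 0.96, while Rps6 fell by 0.73, Rpl5 by 0.65 and Rpl4 by 0.52. In polysomal RNA 0 of 76 passed in either direction in edgeR's test, beside 9.69% of all genes higher and 8.28% lower. Of the 76, 4 had an unadjusted p below 0.05 in that test, beside 3819 of all 12224 genes. Of the 10 other TOP genes, 0 were higher and 2 lower in sub-polysomal RNA. This was 3 against 1 with Actb scaling and 2 against 2 with GC offsets. Over all 12157 genes with a GC value, the GC offsets gave 1616 higher and 1487 lower in this pool. In the main fit Hnrnpa1 fell by 1.00 and Vim by 0.44 in sub-polysomal RNA, and Eif4b and Eef1d were higher in polysomal RNA by 0.46 and 0.44. Of the nuclear RNAs, Neat1 was higher in METTL7A1 cells by 0.74 in polysomal and by 0.68 in sub-polysomal RNA, with adjusted p of 0.0495 and 0.0406, and Malat1 had changes of 0.68 and 0.82, with adjusted p of 0.141 and 0.0589. Among the elongation partners 7 were higher and 1 lower in the sub-polysomal pool, beside 16.8% and 14.5% of all genes. The split of the partners was 2 against 1 with GC offsets and 9 against 1 with Actb scaling. In polysomal RNA 2 partners were higher and 3 lower, or 3 and 1 with Actb scaling, beside 9.69% and 8.28% of all genes in the main fit. Actb scaling had 1234 of all 12224 genes higher and 495 lower in the polysomal pool. Main-fit changes there were 0.57 for Dohh, -0.91 for Eif5a2, -0.67 for Eef1akmt1 and -0.56 for Eef2k. In sub-polysomal RNA the main fit had Dohh at 1.49, Vars at 0.88 and Eif5a2 at -1.17.

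Of 22 tested regulators of TOP mRNAs, 10 were higher and 4 lower in polysomal RNA of mock cells, and 7 were higher and 4 lower in METTL7A1 cells, beside 23.3% and 23.7% of all genes in mock and 30.0% and 29.3% in METTL7A1 cells. TMM factors within each pool gave 13 against 3 in mock and 16 against 3 in METTL7A1 cells. Actb scaling gave 7 against 4 and 3 against 4. Over all 12224 genes TMM factors within each pool gave 5871 higher and 1743 lower in mock and 5970 and 2356 in METTL7A1 cells. Actb scaling gave 2075 and 2876 over all genes in mock and 2137 and 4230 in METTL7A1 cells. Larp1, the protein that binds the TOP motif, was higher by 0.66 and 0.43 (standard error 0.14 in both). Eif4ebp1, the mTORC1 target that blocks eIF4E, fell by 1.60 and 2.29 (standard error 0.19 in both). Eif4g1, the scaffold of the cap-binding complex, was higher by 1.18 and 1.27. Between genotypes 0 of the 22 passed in polysomal RNA in the main edgeR fit. There 4 of the 22 had an unadjusted p below 0.05, beside 3819 of all 12224 genes. Over all genes 9.69% were higher and 8.28% lower in that fit. With RLE factors, and with GC offsets, 1 of the 22 was lower, beside 1074 of 12224 and 1210 of 12157 genes. In sub-polysomal RNA 4 regulators were higher and 4 lower, beside 16.8% and 14.5% of all genes. The regulators' counts were 6 and 0 with Actb scaling and 2 and 3 with GC offsets. Over all genes they were 3283 and 667 of 12224 with Actb scaling and 1616 and 1487 of 12157 with GC offsets. The main fit had the mTORC1 subunits Mlst8, Akt1s1 and Rptor at 0.81, 0.80 and 0.79 and Eif4e and Rps6kb1 at -0.68 and -0.58. Larp1 differed between genotypes by 0.18 in sub-polysomal and -0.04 in polysomal RNA, with adjusted p of 0.355 and 0.856 in edgeR's quasi-likelihood test.

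The third comparison, the shift to polysomes, is the pool change in METTL7A1 cells minus that in mock cells and tests whether the genotypes differ in it. In edgeR's quasi-likelihood test 0 of the 9 members passed in either direction, and so did 0% of all genes at an adjusted p of 0.05 and 0% by the study's rule. The same test had 57 of 22519 genes higher and 102 lower without a filter, with 10 by the study's rule, and 57 of 12010 higher and 71 lower without mock replicate A. At an unadjusted p below 0.05 there were 3 members, Eef1a1, Eef1b2 and Tpt1, in edgeR, beside 1911 of all 12224 genes. The count of members was 3 in limma-voom and in DESeq2 as well. After adjustment limma-voom had 0 and DESeq2 had 2, beside 153 of 12224 genes higher and 213 lower in DESeq2. The shift of Eef1a1 was 0.86 (95% confidence interval 0.34 to 1.37, adjusted p = 0.132 in edgeR's quasi-likelihood test), and DESeq2 gave 0.85 with an adjusted p of 0.00587. The shift of Tpt1 was 0.65 (0.18 to 1.12, adjusted p = 0.176 in edgeR's quasi-likelihood test), and DESeq2 gave 0.64 with an adjusted p of 0.0187. Without mock replicate A the shift of Eef1a1 was 1.11, with an adjusted p of 0.043 in edgeR's quasi-likelihood test. Eef1b2 stood at 0.47, Eef1g and Pabpc1 at 0.37, Npm1 at 0.22, Eef2 at 0.07, Rack1 at -0.17 and Fau at -0.50. The median of the 9 was 0.37, beside -0.30 for the ribosomal protein mRNAs and -0.01 for all genes. With GC offsets these medians were 0.28, -0.19 and 0.00, and scaled to Actb they were 0.20, -0.49 and -0.17. The polysomal and sub-polysomal libraries enter this shift as well as the comparisons above, so these values are not independent of one another.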

How the data were processed

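The deposited values are whole-number counts per gene without normalization. Per the labels and the study's methods, the authors aligned the reads to mm10 with STAR 2.5.3a and counted them with featureCounts. The handling of reads that match several genes is not given in the sources used here. The fit was edgeR 4.0.16 under R 4.3.3, on TMM-scaled counts of all 12 libraries and a mean for each group. Each contrast went through edgeR's quasi-likelihood test, with Benjamini-Hochberg adjustment over 12224 genes. A prior count of 2 entered log2 CPM. The fit was tested on simulated counts. The study describes its fractionations as done on biological triplicates, but the labels do not name separate cultures, so p-values measure the spread between these libraries, which may be technical.

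The members and the gene lists were chosen with earlier results of these data known. Some lists of other genes share genes, so their counts are not separate. Eef1d is among both the other TOP genes and the elongation partners. Rps6 is among both the regulators and the ribosomal protein mRNAs, and Rps27a among both the partner genes and the ribosomal protein mRNAs. In each list of other genes, those named were up to 3 in each direction with the largest changes at an adjusted p below 0.05 and a mean of at least 5 CPM, besides genes named whatever their values. These were the controls, the markers of epithelial and other cells, Larp1, Eif4ebp1, Eef2k, Eef1d, Eef1a2 and Pabpc4. They also took in the 4 genes whose profile was most like that of the members. GC content and coding length came from GENCODE transcripts of GRCm38, and copies from BLAST 2.17.0. Alternatives were RLE factors, TMM factors within each pool, Actb scaling, DESeq2 1.42.0, limma-voom (limma 3.58.1), 2 other filters, only the compared groups in the fit, the replicate block, each replicate left out and the study's threshold. Offsets for GC content (lowess, span 0.3) and the addition of near-identical copies were chosen after seeing the data.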

Additional observations from a re-analysis of the deposited data

How the results depend on the processing

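The falls of Pabpc1 and Fau into the polysomal pool in both genotypes, that of Tpt1 in mock cells, the rise of Eef1a1 in METTL7A1 cells and the sub-polysomal falls of Eef1a1 and Tpt1 passed an adjusted p of 0.05 in every alternative fit. Of 738 single values of the members, 654 kept their direction and side of the threshold, 23 lost and 28 gained the threshold, and 33 turned in direction by unrounded values, some of them at 0.00 when rounded. Of those that turned, Eef1b2 in mock cells alone passed the threshold in the main fit, and none passed in the alternative. The cause of the changes below was not tested.

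TMM factors within each pool raised the median pool change of all genes by 0.42 in mock and 0.43 in METTL7A1 cells. The members' median was then 0.51 and 0.49, and 5 members were higher in each genotype. Over all 12224 genes 5871 were higher and 1743 lower in mock, and 5970 and 2356 in METTL7A1 cells. Eef1b2 turned from -0.42 to 0.00 in mock cells and Rack1 from -0.08 to 0.36 in METTL7A1 cells. Of the calls over all genes in mock cells, 77.1% were then higher, against 49.6%. Actb scaling moved the median of all genes by 0.26 in the sub-polysomal genotype change, by -0.24 in the METTL7A1 pool change, by -0.16 in the shift and by 0.10 in the polysomal genotype change. With it, 1 member was higher in each pool change. Over all 12224 genes 2075 were higher and 2876 lower in the mock pool change, and 2137 and 4230 in the METTL7A1 pool change. The members' median was -0.19 in the METTL7A1 pool change and 0.03 in the sub-polysomal genotype change, and 2 members were higher in the latter. Over all genes 3283 were higher and 667 lower in that genotype change, so higher calls were 83.1%, against 53.7%. Values that turned with it were Eef1b2 in the METTL7A1 pool change (-0.19), Fau and Rack1 in the polysomal (0.09 and 0.07) and Eef1g and Npm1 in the sub-polysomal genotype change (0.12 and 0.03), and Eef2 in the shift (-0.09). GC offsets took the members' median in the METTL7A1 pool change to -0.15, and turned Eef1b2 there (-0.21) and Eef2, Npm1 and Fau in the sub-polysomal genotype change (-0.06, 0.05 and -0.09). In the polysomal genotype change Npm1 turned to 0.00 with RLE factors, TMM factors within each pool and DESeq2 and to -0.01 with at least 10 counts in every library, and Fau turned to 0.02 in limma-voom.

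In the sub-polysomal genotype change DESeq2, limma-voom, no filter beyond 1 count and only the compared groups each had 1 member higher, which was Fau. DESeq2 had 2 members higher in the shift. With only the compared groups, 1 member was higher in the mock pool change. The study's threshold left 0 higher in each pool change, 1 lower in mock cells and 0 lower in the sub-polysomal genotype change.

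With replicates left out in turn, the number of members higher ran from 0 to 2 in the mock pool change, from 2 to 4 in the METTL7A1 pool change, from 0 to 1 in each genotype change and from 0 to 1 in the shift. The number lower ran from 3 to 4 in the mock pool change, from 2 to 3 in the METTL7A1 pool change and from 2 to 4 in the sub-polysomal genotype change. The members' median in the mock pool change ran from -0.18 to 0.21, with -0.18 without mock replicate A. Single values whose range took in both directions were Eef1g (-0.03 to 0.26) and Rack1 (-0.18 to 0.29) in the mock pool change, Eef1b2 (0.00 to 0.13), Npm1 (-0.07 to 0.11), Fau (-0.14 to 0.20) and Rack1 (-0.14 to 0.04) in the polysomal genotype change, Rack1 (-0.06 to 0.23) in the sub-polysomal genotype change, and Eef2 (-0.10 to 0.38) and Rack1 (-0.38 to 0.09) in the shift.

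With the replicate letter as a block, mock cells had 2 members higher and 4 lower, against 3 and 3 in METTL7A1 cells, and 0 in the shift, and the median shift was 0.35. Deviations of libraries that share a letter correlated with r from -0.29 to 0.11, so libraries of the same letter did not deviate together. Whether a letter marks the same culture or gradient in both pools is not stated in the labels. Between different letters r reached 0.33 for sub-polysomal B with polysomal C and 0.23 for sub-polysomal C with polysomal B in mock cells, and pairing under other letters was not tested. The block changed no member's call. Genotype comparisons share no letters.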

Other observations

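The 4 tested genes whose log2 CPM over the 12 libraries was most like the mean of the members' standardised values were Eif3h, Bud13, Gm4366 and Dmap1. Their Pearson r was 0.865, 0.853, 0.791 and 0.785, with libraries of the same 4 groups as points. Eif3h is a subunit of initiation factor 3 and was itself in the list of other TOP genes. Gm4366 is the near-identical copy of Eef1g, so its counts may hold reads of that mRNA. The members' mean profile was lowest in mock polysomal library B at -0.43 and highest in mock sub-polysomal library C at 0.59. Mock sub-polysomal library A stood at -0.38, apart from libraries B and C of its group at 0.50 and 0.59.

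Of 6 epithelial mRNAs, 4 were higher in polysomal RNA of mock cells and 6 in that of METTL7A1 cells, beside 23.3% and 30.0% of all genes. Epcam at 0.23 and Krt18 at 0.26 did not pass in mock cells. Between genotypes 4 of the 6 were higher in polysomal RNA, and 1 was higher and 2 were lower in sub-polysomal RNA, beside 9.69% of all genes higher in the former and 16.8% higher and 14.5% lower in the latter. Krt8, a keratin of simple epithelia, rose by 0.82 in polysomal and 0.81 in sub-polysomal RNA (standard error 0.15 and 0.16). Krt14, a basal keratin, fell by 0.56 in sub-polysomal RNA and had a log2 change of -0.36 in polysomal RNA. Epcam, an epithelial adhesion molecule, fell by 0.71 in sub-polysomal RNA and had a log2 change of 0.14 in polysomal RNA. Its shift of 0.85 had an adjusted p of 0.138 in edgeR's quasi-likelihood test. Cd68, a lysosomal protein used as a macrophage marker, rose by 1.56 in polysomal RNA (standard error 0.23), from between 4.64 and 7.82 CPM to between 14 and 22.3 CPM. In sub-polysomal RNA Cd68 rose by 0.80 (standard error 0.27, adjusted p = 0.0329 in edgeR's quasi-likelihood test). Ptprc, which marks leukocytes, had 1 count in 1 of the 12 libraries and 0 in the others.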
